A study of Equus caballus with 4 samples.

Results

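The genes described here encode the subunits of the mitochondrial respiratory chain and of ATP synthase, with a few genes whose names begin the same way. They were chosen by name: a noncontrol probe was taken when its gene symbol, in upper case, began with NDUFA, NDUFB, NDUFC, NDUFS, NDUFV, UQCR, COX4 to COX8, ATP5, SDHA, SDHB, SDHC or SDHD. This rule found 166 probes of 58 genes, among 14585 genes with a symbol on the array. The rule reads names and no measured values. Each gene is given by its brightest probe, the one with the highest mean log2 processed signal.

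Satellite cells, the stem cells of skeletal muscle, were grown from the semitendinosus muscle of 6 colts aged 6 months, and 1 cell line was chosen for its viability and fusion. On day 3 of differentiation the cultures received either gamma-oryzanol (GO, a mixture of plant sterol ferulates from rice bran) at 125 nM for 24 h or the vehicle alone, and both groups contained DMSO at 0.04 µl/ml. Labeled cRNA of GO-treated cells (Cy5) and of control cells (Cy3) was hybridized together on each of 4 arrays of 1 slide. The dyes were not swapped, so dye and treatment cannot be told apart, and whether the 4 replicates are separate cultures, or stem from more than 1 horse, is not stated.

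The respiratory chain consists of complexes I to IV in the inner mitochondrial membrane, which pass electrons from NADH and succinate to oxygen and pump protons across the membrane. ATP synthase, complex V, lets the protons flow back and makes ATP. Both are built from many nuclear-encoded subunits and from a small set encoded in mitochondrial DNA, and their content grows as muscle cells differentiate. In counts, medians and rankings below, a complex stands for its nuclear-encoded subunits. Those encoded in mitochondrial DNA are described apart.

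A log2 ratio below 0 means less signal in GO-treated than in control cells on the same array. Tests were limited to probes with a signal well over background on every array in either channel, which 57 of the 58 genes met. A change was called when the adjusted p did not exceed 0.05 (limma, adjusted over 26832 probes), together with a fold change of at least 1.3, which is a log2 ratio of 0.38 in size. These p-values measure the spread between the arrays, and the number of arrays limits the precision.

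By limma 0 of the 57 genes passed both thresholds, against 8.68% of the 9500 genes tested with 1 probe each and 8.94% of all probes tested. The share of genes that rose was 3.31% and that of genes that fell was 5.38%. Neither the plain one-sample test nor the test of the channels as separate samples called a member; over the whole array they called 147 and 919 of the 26832 probes. Centring on the medians without lowess called 5 of the 57 members, all higher with GO, where 366 of the 9500 genes were called higher and 681 lower. Unadjusted p under 0.05 was reached by 15 members, 12 of them lower and 3 higher with GO, which is 26.3% of the members against 34.7% of all genes. The adjusted p alone was passed by 4 members, 7.02% against 17.3% of all genes, and their fold changes were below the threshold. Over the whole array 2399 probes passed both thresholds, and 1566 did so without array 2.

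The ratios of the members lay close to 0. The 95% confidence interval of the log2 ratio was within the fold change threshold on both sides for 50 of the 57 genes (87.7%), against 6068 of the 9500 genes tested (63.9%). The fold change threshold alone was passed by 1 member, SDHC, against 957 of the 9500 genes. On arrays 1 to 4 the median log2 ratio of the members was -0.07, -0.04, -0.01 and -0.04, and that of all genes was 0.02, -0.01, 0.01 and -0.01. The median of the 57 gene means was -0.03, with 33 genes below 0, but it was 0.12 with 14 genes below 0 when the arrays were centred on their medians without lowess dye normalization. The median SD over the 4 arrays was 0.10 for a member and 0.15 for a gene of the whole array.

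**Figure D1:**
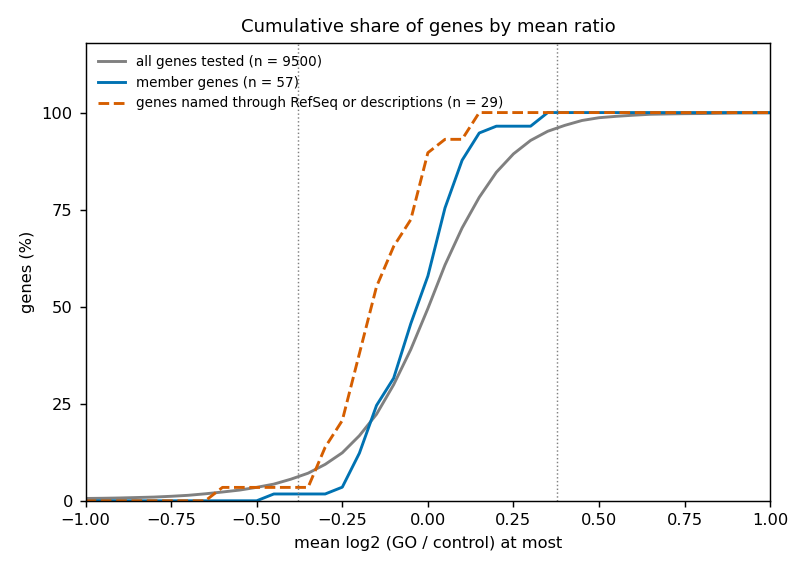
Share of genes (vertical axis, percent) whose mean log2 GO/control ratio is at most the value on the horizontal axis, for all 9500 genes tested, the 57 member genes, and 29 genes of the same families named through RefSeq or descriptions; dotted lines mark the 1.3-fold threshold. The 5th and 95th percentiles are -0.42 and 0.34 for all genes and -0.22 and 0.14 for the members on the deposited scaling, whose median of -0.03 becomes 0.12 without lowess.

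Several probes of a gene were on the array for 37 of the tested members. In 26 of them every probe lay on the same side of 0, and the median distance between the lowest and the highest probe of a gene was 0.06. Many of these probes overlap, some shifted by only a few bases, so their agreement is not independent evidence. The 5 ATP5G3 probes, for example, start between 42304506 and 42304510 on chromosome 18. The widest was 0.26, for ATP5J. Of the 165 member probes tested, 0 passed both thresholds by limma and 14 passed the adjusted p alone, against 4859 of the 26832 probes of the whole array.

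Complex I oxidizes NADH and hands the electrons to coenzyme Q. Its 30 tested subunits by the name rule had a median log2 ratio of -0.07, -0.04, -0.01 and -0.05 on arrays 1 to 4. The median of the gene means was -0.03, with 18 genes below 0, and it was -0.06 after normexp background correction with loess and 0.12 without lowess. By limma 0 of the 30 passed both thresholds and 5 had an unadjusted p under 0.05, 16.7% against 34.7% of all genes. For all 30 the confidence interval was within the 1.3-fold threshold, so with the deposited ratios none of these intervals reached a change of that size.

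The 7 core subunits carry the flavin and the iron-sulfur clusters or line the site of coenzyme Q. Their median was 0.08 on array 1 and -0.02, -0.03 and -0.11 on arrays 2 to 4, with a median of the gene means of -0.02 that became 0.12 without lowess. The highest ratio in complex I was that of NDUFS7, which holds the last iron-sulfur cluster before coenzyme Q. Its probe ends in the stop codon, in capitals here, so it reads the end of the coding sequence.
NDUFS7: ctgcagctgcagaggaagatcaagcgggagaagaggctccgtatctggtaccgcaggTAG
This probe lies at chrUn:329817833-329817892 on the minus strand of EquCab1. The NDUFS7 log2 ratios were 0.35, 0.06, 0.16 and -0.04 on arrays 1 to 4, a mean of 0.13 ± 0.17 (SD, n = 4; adjusted p = 0.269). Arrays 1 and 3 were well above 0 and array 4 was just below it, so the mean is within the spread between arrays. The lowest core means were those of NDUFS3 and NDUFS1, both -0.17. NDUFS3, near the site of coenzyme Q, gave -0.01, -0.24, -0.23 and -0.19. NDUFS1, the large subunit with several iron-sulfur clusters, gave -0.22, -0.17, -0.17 and -0.11, a mean of -0.17 ± 0.05 (adjusted p = 0.0834). It was lower on all 4 arrays without passing either threshold.

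Among the 23 accessory subunits, which surround the core, the median was -0.03, and it was above 0 without lowess. NDUFAB1, the mitochondrial acyl carrier protein, had the lowest ratio of the nuclear-encoded subunits of complex I. It gave -0.35, -0.12, -0.21 and -0.23 on arrays 1 to 4, a mean of -0.23 ± 0.09 (SD, n = 4; adjusted p = 0.0491), and 0.12 without lowess. NDUFA10 gave -0.23, -0.22, -0.26 and -0.18, a mean of -0.22 ± 0.03 (adjusted p = 0.0388). A further NDUFA10 probe was at -0.09. Both genes passed the adjusted p and missed the fold change, and of the pair only NDUFA10 was below 0 in all 3 scalings. The brightest complex I probe was that of NDUFS5, with -0.16, -0.12, -0.16 and -0.04, a mean of -0.12 ± 0.05 (adjusted p = 0.171). It was lower on all 4 arrays here and 0.31 without lowess. The 5 NDUFS5 probes ran from -0.12 to 0.05.

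**Figure D2:**
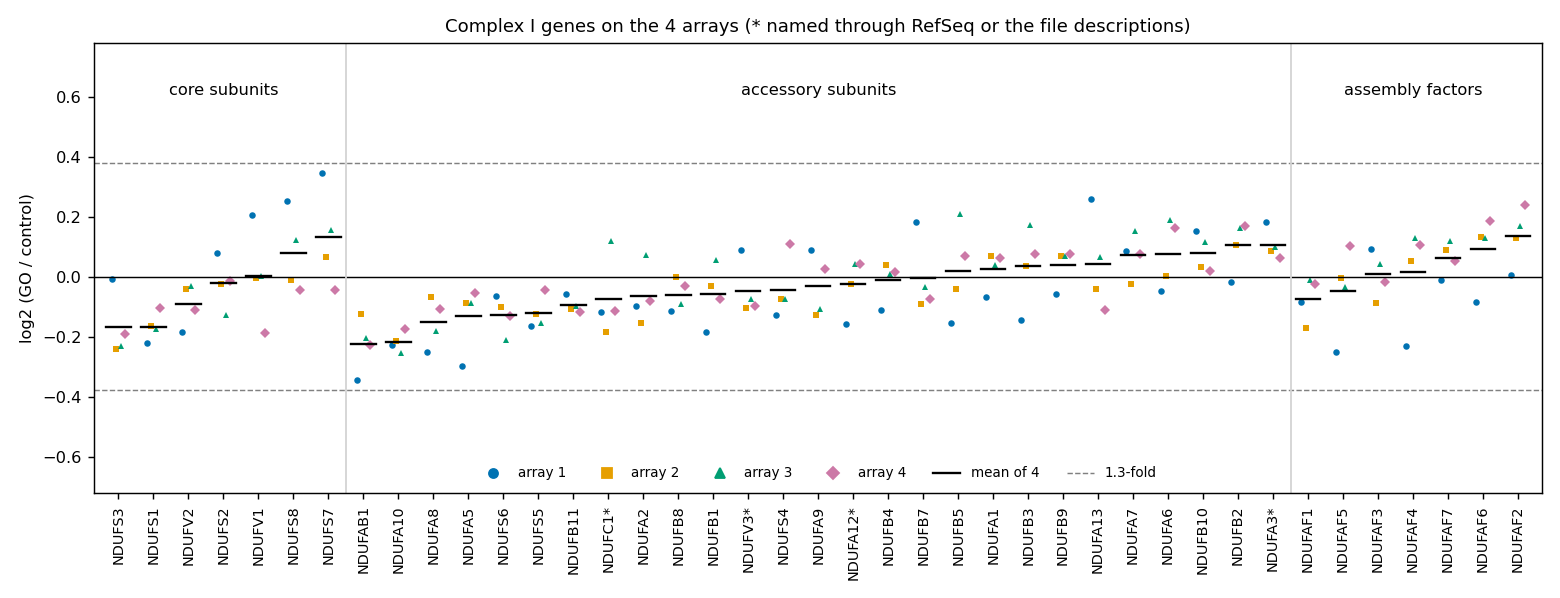
Log2 GO/control ratio (vertical axis) of each complex I gene and each assembly factor on each of the 4 arrays, with the mean as a bar and the 1.3-fold threshold dashed; an asterisk marks genes named through RefSeq or the descriptions. The means run from -0.23 (NDUFAB1) to 0.14 (NDUFAF2), and the median of the 34 subunits, -0.03 as drawn, is 0.13 without lowess.

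The name rule also takes in 7 assembly factors of complex I, NDUFAF1 to NDUFAF7, which help to build the complex and are not part of it. By their brightest probes and limma, 0 passed both thresholds and 0 had an unadjusted p under 0.05, against 8.68% and 34.7% of all genes. Their means lay between -0.07 (NDUFAF1) and 0.14 (NDUFAF2). A further probe of each of these 2 genes was higher, at 0.12 for NDUFAF1, above 0 on all 4 arrays, and at 0.29 for NDUFAF2 (adjusted p = 0.0248). Further probes were at 0.22 for NDUFAF6 (unadjusted p = 0.0307 by limma) and at -0.13 for NDUFAF7, which was below 0 on all 4 arrays. The median was -0.08 on array 1 and 0.05, 0.12 and 0.10 on arrays 2 to 4, so array 1 stood on the other side of 0.

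Complex II, succinate dehydrogenase, joins the citric acid cycle to the chain. Probes were named for 3 of its 4 genes, and none was named SDHD. The catalytic part is made of SDHA, the flavoprotein that oxidizes succinate, and SDHB, the iron-sulfur protein. SDHA gave -0.05, -0.30, -0.33 and -0.22 on arrays 1 to 4, a mean of -0.22 ± 0.13 (SD, n = 4; adjusted p = 0.0664). Array 1 was close to 0 and the other 3 were well below it. SDHB gave -0.04, -0.07, -0.05 and -0.06, a mean of -0.06 ± 0.02 (adjusted p = 0.501). It was slightly lower on each array, and its interval, -0.18 to 0.07, was within the 1.3-fold threshold.

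SDHC, a membrane anchor beside the coenzyme Q site, gave -0.22, -0.25, -0.01 and -1.35 on arrays 1 to 4, a mean of -0.46 ± 0.60 (SD, n = 4; adjusted p = 0.171). Array 4 alone carried the mean past the fold change threshold, and without it the mean was -0.16. All 4 SDHC probes showed this, with -1.39 to -1.34 on array 4 and -0.32 to 0.07 on the other arrays. On array 4 the processed log2 signal of the 4 probes was 10.4 to 10.9 in the control channel and 9.06 to 9.52 in the GO channel. The 3 complex II genes were below 0 in all 3 scalings, with medians of -0.22, -0.24 and -0.19. By limma 0 of the 3 passed both thresholds, against 8.68% of all genes. An unadjusted p under 0.05 was reached by 1, SDHA, which is 33.3% against 34.7% of all genes. SDHAF2, which attaches the flavin to SDHA, was higher on all 4 arrays, with 0.23, 0.11, 0.21 and 0.07, a mean of 0.15 ± 0.08 (adjusted p = 0.115).

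For complexes III and IV the symbols in the files are of little help. The rule found 0 genes of complex III and 2 of complex IV, since most of these probes carry a locus number or an accession in place of a symbol, and those of COX4I1 carry the name COXIV, which the rule does not match. RefSeq and the description column name 30 further genes of the same families, with 101 probes, and these were added after the values of the other genes were known. Of the 29 that were tested, 26 were below 0, with a median of -0.17, but 9 were below 0 and the median was 0.13 without lowess. By limma 1 of the 29 passed both thresholds, COX8B (3.45% against 8.68% of all genes), and 16 had an unadjusted p under 0.05, all lower (55.2% against 34.7%).

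Complex III takes electrons from reduced coenzyme Q to cytochrome c, and its 7 tested nuclear-encoded genes are all among those added. CYTB, its subunit encoded in mitochondrial DNA, is not among the 7 and went the other way, with a mean of 0.23 (adjusted p = 0.139). The median of the 7 is given first. The median on arrays 1 to 4 was -0.14, -0.19, -0.25 and -0.18. All 7 gene means were below 0, with a median of -0.20, and so they were after normexp and loess (median -0.13), but without lowess 6 of the 7 were above 0 (median 0.16). By limma 0 passed both thresholds and 5 had an unadjusted p under 0.05, 71.4% against 34.7% of all genes. UQCRH, the hinge protein beside cytochrome c1, had the lowest ratio with -0.32, -0.23, -0.25 and -0.32, a mean of -0.28 ± 0.04 (SD, n = 4; adjusted p = 0.0211). Its 4 arrays lay close together below 0, and without lowess it was 0.25. The highest of the 7 was UQCR10, a small subunit, at -0.08 ± 0.09 (adjusted p = 0.382), lower on 3 of the 4 arrays. The core protein UQCRC2 gave -0.08, -0.35, -0.34 and -0.18, a mean of -0.24 ± 0.13 (adjusted p = 0.0563), and by this probe was the only complex III gene below 0 in all 3 scalings. The other UQCRC2 probe had a mean of -0.02, with values on both sides of 0.

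Complex IV, cytochrome c oxidase, passes the electrons to oxygen. Several of its subunits exist as a general form and as a form of heart and skeletal muscle. The 13 tested nuclear-encoded genes, 12 of them added, had a median of -0.26, -0.15, -0.24 and -0.24 on arrays 1 to 4. The median of the gene means was -0.21 with 12 genes below 0, but it was -0.04 with 10 genes below 0 after normexp and loess and 0.08 with 5 below 0 without lowess. By limma the adjusted p alone was passed by 7 of the 13, 6 lower and 1 higher, which is 53.8%, against 17.3% of all genes. Without lowess 3 of the 13 passed both thresholds as higher and 1 as lower, beside 366 and 681 of the 9500 genes.

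The nuclear-encoded gene that fell was COX8B, the muscle form of the smallest subunit. Its probe, which ends in the stop codon in capitals, is shown first. The probe of COX5A, a general subunit on the matrix side, and that of NDUFA4L2, the gene with the highest ratio of the complex, follow it.
COX8B: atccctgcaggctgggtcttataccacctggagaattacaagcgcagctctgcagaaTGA
COX5A: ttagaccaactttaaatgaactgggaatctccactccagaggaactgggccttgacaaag
NDUFA4L2: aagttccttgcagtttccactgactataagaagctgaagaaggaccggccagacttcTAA
The COX8B probe lies at chrUn:293757275-293757334 on the plus strand of EquCab1, that of COX5A at chr1:116103859-116103918 on the plus strand, and that of NDUFA4L2 at chr6:71861963-71862130 on the minus strand, where it also ends in the stop codon. COX8B gave -0.51, -0.66, -0.71 and -0.70 on arrays 1 to 4, a mean of -0.65 ± 0.09 (SD, n = 4; adjusted p = 0.00289), a 1.56-fold fall. All 4 arrays were past the fold change threshold. It was -0.68 after normexp and loess and -0.57 without lowess, called in both, and with the plain one-sample test its adjusted p was 0.0519. COX8B has a single probe on the array. COX5A gave -0.37, -0.26, -0.31 and -0.38, a mean of -0.33 ± 0.06 (adjusted p = 0.0141), and its 5 probes lay between -0.33 and -0.32. It passed the adjusted p and missed the fold change, and was -0.35 after normexp and loess and -0.07 without lowess (adjusted p = 0.476).

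The other muscle forms were COX7A1 and COX6A2. COX7A1 gave -0.41, -0.25, -0.41 and -0.25, a mean of -0.33 ± 0.09 (SD, n = 4; adjusted p = 0.0174), and COX6A2 gave -0.10, -0.30, -0.25 and -0.19, a mean of -0.21 ± 0.09 (adjusted p = 0.0591). Both were lower on all 4 arrays, short of the fold change threshold. Their general counterparts were close to them: COX7A2 gave -0.35, -0.15, -0.24 and -0.24, a mean of -0.24 ± 0.08 (adjusted p = 0.0373), and COX6A1 gave -0.32, -0.20, -0.38 and -0.24, a mean of -0.28 ± 0.08 (adjusted p = 0.0255). Without lowess COX8B, COX7A1 and COX6A2 were at -0.57, -0.26 and -0.24, COX7A2 at 0.05 and COX6A1 at 0.40. After normexp and loess COX8B was at -0.68, COX7A1 and COX6A2 at -0.36 and -0.17, and COX7A2 and COX6A1 at -0.19 and -0.03. Across pairs the forms then overlapped. Within each pair the muscle form was then lower, while with the deposited ratios COX6A2 was above COX6A1. The difference between forms was not tested.

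COX4I1, the general form of subunit 4 and the brightest complex IV probe, gave -0.20, -0.07, -0.18 and -0.30, a mean of -0.18 ± 0.10 (SD, n = 4; adjusted p = 0.086). It was lower on all 4 arrays, and was 0.14 after normexp and loess and 0.56 without lowess. The 5 COX4I1 probes ran from -0.18 to -0.07, with this probe the lowest. COX4I2, the other form, was well above background on 2 of the 4 arrays in each channel and was not tested; its ratios were -0.04, 0.07, 0.60 and 0.92. COX6B1 had a mean of -0.16 ± 0.09 (adjusted p = 0.116) over 13 probes between -0.21 and -0.11, but was at -0.0069 after normexp and loess and 0.36 without lowess. COX7B2, a form best known from testis, was not above background on enough arrays to be tested.

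NDUFA4L2, a relative of the complex IV subunit NDUFA4 that is known to be induced by low oxygen, went the other way. It gave 0.45, 0.28, 0.26 and 0.38 on arrays 1 to 4, a mean of 0.34 ± 0.09 (SD, n = 4; adjusted p = 0.0156), a 1.27-fold higher signal. All 4 arrays were above 0, in all 3 scalings the mean was too (0.34, 0.19 and 0.28), and the fold change was short of the threshold. COX7A2L, which helps to join complexes III and IV and is not counted as a subunit, gave 0.00, -0.16, 0.06 and -0.57, a mean of -0.17 ± 0.28 (adjusted p = 0.315). As for SDHC, its lowest value was on array 4, and its values on arrays 1 to 3 lay on both sides of 0.

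**Figure D3:**
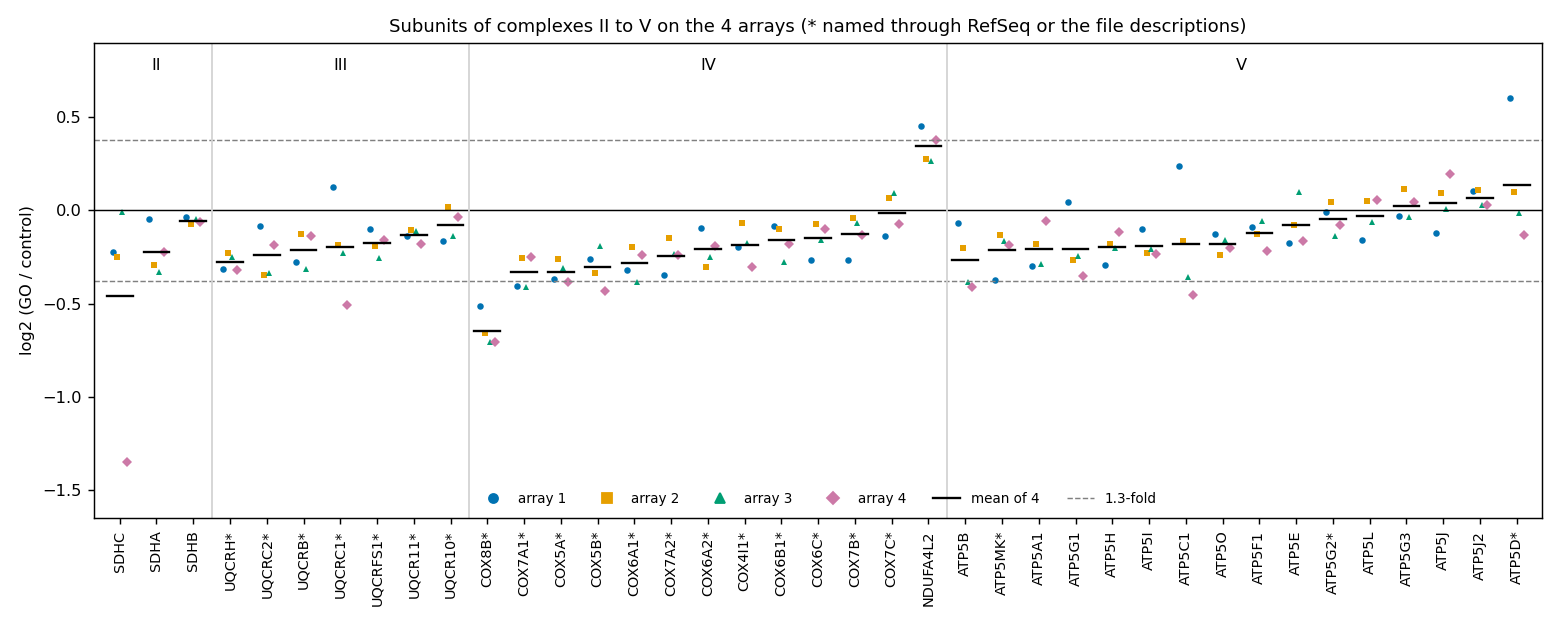
Log2 GO/control ratio (vertical axis) of each subunit gene of complexes II to V on each of the 4 arrays, with the mean as a bar and the 1.3-fold threshold dashed; an asterisk marks genes named through RefSeq or the descriptions. COX8B has its 4 values between -0.71 and -0.51 and SDHC has 1 at -1.35, and the medians of complexes III, IV and V, below 0 as drawn, are 0.16, 0.08 and 0.23 without lowess.

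Complex V consists of the F1 head, which makes ATP, the Fo part with the ring of c subunits, which the protons turn, and a stalk that holds them together. Its 13 tested subunits by the name rule had a median of -0.10, -0.16, -0.16 and -0.16 on arrays 1 to 4. Over the gene means the median was -0.18 with 10 genes below 0, -0.09 without array 4, -0.01 after normexp and loess, and 0.23 without lowess. By limma 0 of the 13 passed both thresholds, 0 passed the adjusted p alone (17.3% of all genes did), and 6 had an unadjusted p under 0.05, 46.2% against 34.7% of all genes. These counts are for the brightest probe of each gene. With 3 added genes the median was -0.15. Of these 16 genes, 6 were called higher and 0 lower without lowess, beside 366 and 681 of the 9500 genes.

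In the F1 head, ATP5B, the catalytic beta subunit, had the lowest ratio of the nuclear-encoded subunits of the complex. It gave -0.07, -0.20, -0.38 and -0.41, a mean of -0.27 ± 0.16 (SD, n = 4; adjusted p = 0.056), and its 11 probes lay between -0.31 and -0.19. An adjusted p under 0.05 was reached by 6 of them, as by 2 of the 3 probes of the stalk gene ATP5H. These 6 overlap and read the same site, so they are not independent. The ATP5B probe farthest from them, at chrUn:195725842-195725901, had a mean of -0.29 (adjusted p = 0.0995) and was at 0.10 on array 1. For the brightest ATP5B probe, arrays 3 and 4 were past the fold change threshold and array 1 was near 0. Its mean was -0.01 after normexp and loess and 0.43 without lowess. ATP5A1, the alpha subunit and the brightest probe of the complex, gave -0.30, -0.18, -0.29 and -0.06, a mean of -0.21 ± 0.11 (adjusted p = 0.073), and its 5 probes ran from -0.21 to 0.01. It was lower on all 4 arrays, but at 0.13 after normexp and loess and 0.59 without lowess. The gamma subunit ATP5C1, the central shaft, was at 0.24 on array 1 and at -0.16, -0.36 and -0.45 on the others. Its other probe was below 0 on all 4 arrays, with -0.39, -0.20, -0.15 and -0.25, a mean of -0.25 (adjusted p = 0.0435). ATP5D, the delta subunit and an added gene, had the highest mean of the complex, 0.14 ± 0.32 (adjusted p = 0.457), which came from 0.60 on array 1 and was -0.02 without it.

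The c subunit is encoded by 3 genes, whose mature proteins are identical. ATP5G1 gave 0.04, -0.27, -0.25 and -0.35 on arrays 1 to 4, a mean of -0.21 ± 0.17 (SD, n = 4; adjusted p = 0.116). Array 1 was above 0 and the others below it. ATP5G2, an added gene, had a mean of -0.04 ± 0.08 (adjusted p = 0.636) and ATP5G3 one of 0.03 ± 0.07 (adjusted p = 0.789), with values on both sides of 0. Without lowess the 3 genes were at 0.13, 0.59 and 0.59. ATP5S, known as coupling factor B, and its relative ATP5SL carry the name without being subunits. ATP5SL gave 0.51, 0.26, 0.34 and 0.18, a mean of 0.32 ± 0.14 (adjusted p = 0.0287), higher on all 4 arrays and short of the fold change threshold. After normexp and loess it was 0.13 (adjusted p = 0.0882) and without lowess 0.24 (adjusted p = 0.0887).

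Set side by side as the median over the tested subunits, added genes included, complexes I to V were at -0.03, -0.22, -0.20, -0.21 and -0.15, and without lowess at 0.13, -0.19, 0.16, 0.08 and 0.23. The differences between complexes were not tested. Array 1 correlated least with the other arrays. Across the 86 tested genes of both sets, the correlation of the log2 ratios was 0.80 between arrays 2 and 3 and 0.28 between arrays 1 and 4. Over all 9500 genes these correlations were 0.70 and 0.41. Genes are not independent replicates. The GC content of the probe correlated with the ratio at r = 0.50 on array 1 and at -0.15, -0.09 and -0.21 on arrays 2 to 4 (86 genes), against 0.30, -0.03, -0.01 and -0.17 over all 9500 genes. The part of GC content in these ratios was not tested.

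**Figure D4:**
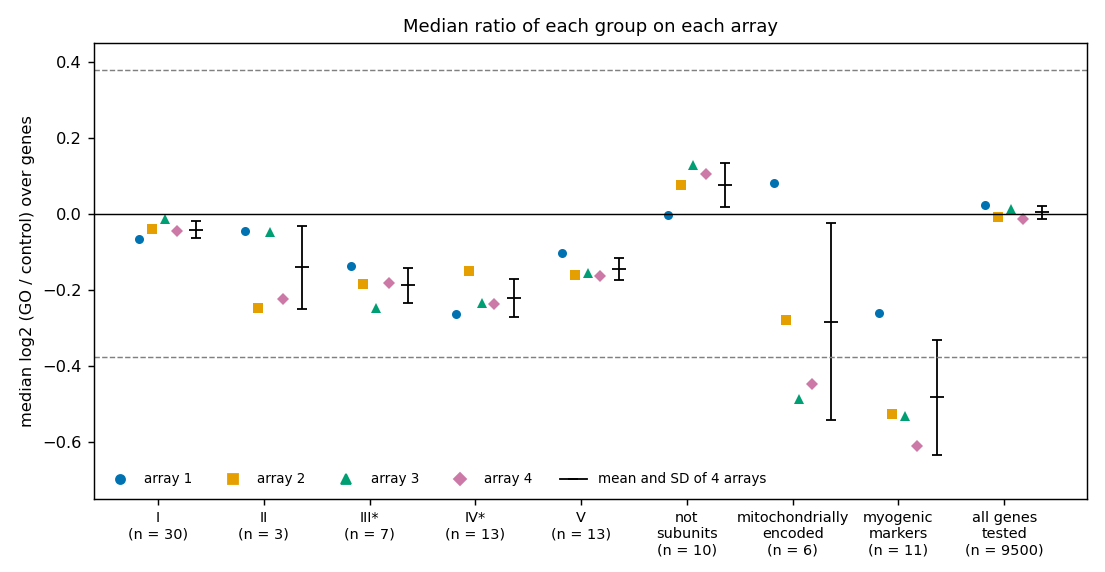
Median log2 GO/control ratio (vertical axis) over the genes of each group on each of the 4 arrays, with the mean and SD of the 4 medians; asterisks mark complexes with genes named through RefSeq or the descriptions. The mean of the 4 medians is -0.04 for complex I, -0.14 for II, -0.19 for III, -0.22 for IV and -0.15 for V, and without lowess the medians of I, III, IV and V are above 0.

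The sign of many of these genes depended on the scaling. Of the 86 genes, 59 were below 0 with the deposited ratios, 60 after normexp and loess, and 23 when the arrays were centred on their medians without lowess. In that last setting 9 genes passed both thresholds as higher, namely ATP5A1, ATP5B, ATP5G2, ATP5G3, ATP5J, ATP5L, COX4I1, COX6A1 and COX6C, and COX8B was called lower, beside 366 and 681 of the 9500 genes. Most of the genes have bright probes: 58 of the 86 were among the 950 genes with the brightest probes. The median log2 ratio of those 950 genes was -0.02 with the deposited ratios and after normexp and loess, and 0.16 without lowess, where the median of all genes was -0.02. The control genes GAPDH and ACTB, with means of -0.04 and -0.05 on the deposited scaling, were at 0.34 and 0.32 after normexp and loess and at 0.86 and 0.84 without lowess. The part of signal strength in the ratios was not tested.

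**Figure D5:**
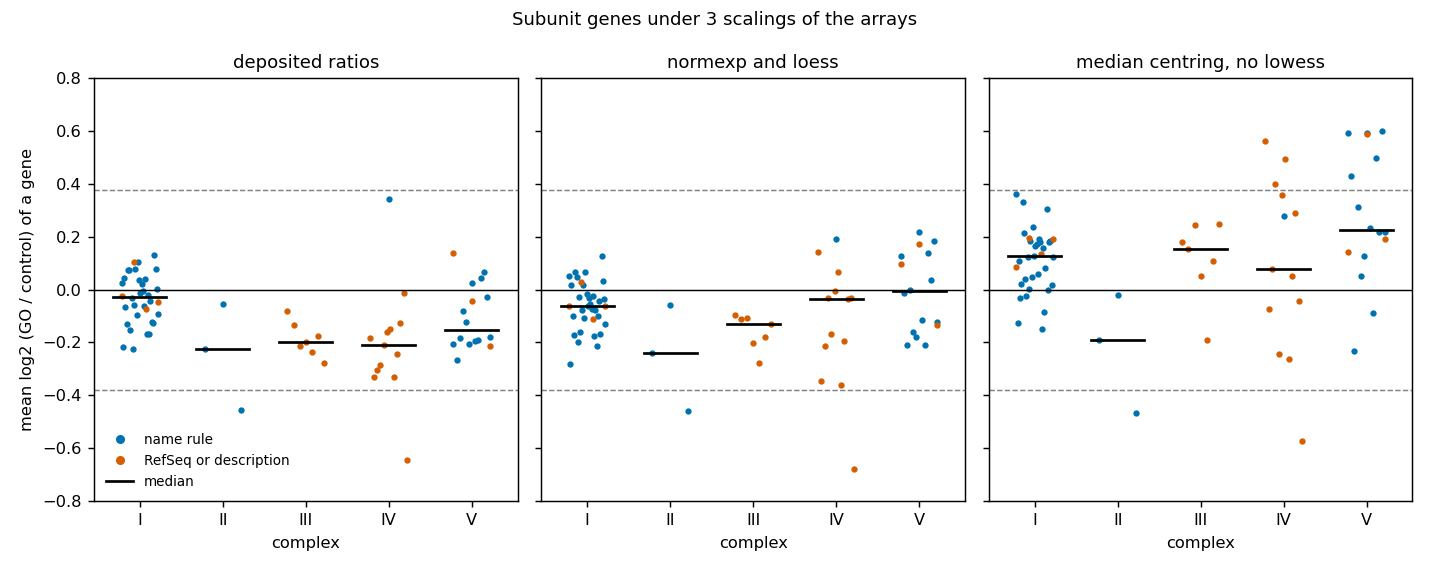
Mean log2 GO/control ratio (vertical axis) of each subunit gene by complex (horizontal axis), with the deposited ratios, after normexp and loess, and after median centring without lowess; bars are medians and dashed lines the 1.3-fold threshold. Complex II is below 0 in all 3 panels, complex V moves from -0.15 to -0.01 and 0.23, and COX8B lies between -0.68 and -0.57.

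Of the 13 subunits encoded in mitochondrial DNA, 6 were on the array and tested. COX2, the subunit that receives the electrons of cytochrome c, fell, with -0.53, -0.48, -0.73 and -0.64 on arrays 1 to 4, a mean of -0.59 ± 0.11 (SD, n = 4; adjusted p = 0.00438). All 4 arrays were past the fold change threshold, but it was -0.18 after normexp and loess and 0.33 without lowess, not called in either, nor with the plain one-sample test (adjusted p = 0.0644). COX3, ATP6, ND1 and ND4 had means of -0.30, -0.34, -0.32 and -0.21, all above 0 without lowess (0.69, 0.60, 0.11 and 0.30). CYTB, a subunit of complex III, had a mean of 0.23 and was higher on all 4 arrays. The 1 call among 6 compares with 8.68% of all genes. Without lowess 2 of the 6 were called higher and 0 lower, beside 366 and 681 of the 9500 genes. The median of the 6 was -0.31, or 0.02 after normexp and loess and 0.32 without lowess. On arrays 1 to 4 it was 0.08, -0.28, -0.49 and -0.45.

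Of 40 assembly factors outside the name rule, 29 were tested. By limma 0 passed both thresholds with the brightest probe of each gene, as with the other tests, and 7 had an unadjusted p under 0.05 (24.1% against 34.7% of all genes). Their median was -0.01, and 5 passed the adjusted p alone, 3 lower and 2 higher, a share of 17.2% beside the 17.3% of all genes. The lowest was LRPPRC, which stabilizes the mitochondrial mRNAs of the chain, with -0.40, -0.25, -0.44 and -0.40, a mean of -0.37 ± 0.08 (SD, n = 4; adjusted p = 0.0119). It was below 0 on all 4 arrays and in all 3 scalings, and past both thresholds without lowess (-0.41). Its other probe, at -0.47, passed both thresholds with the deposited ratios.

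In the list of cytochrome c and coenzyme Q synthesis, 16 of 19 genes were tested, with a median of 0.01, and 1 passed both thresholds, 6.25% against 8.68% of all genes. This was CYCS, cytochrome c itself, which fell, with -0.40, -0.25, -0.46 and -0.44, a mean of -0.39 ± 0.10 (SD, n = 4; adjusted p = 0.0117). Its 4 arrays agree in direction, but the mean is just past the fold change threshold: without array 3 or array 4 the call was lost (-0.36, adjusted p = 0.0541, and -0.37, adjusted p = 0.0374). It was -0.35 after normexp and loess and -0.06 without lowess, both without a call, and the call was also lost with the plain one-sample test, with no replicate block and with the median over the probes (-0.37).

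Of 31 listed names of regulators of mitochondrial biogenesis, 24 were on the array and 21 were tested, with a median of -0.03. Both thresholds were passed by 2 of them, 9.52% against 8.68% of all genes, and 1 of the 2, PRKAA2, was tested through the control channel alone. NRF1, a transcription factor of many respiratory chain genes, rose, with 0.40, 0.73, 0.44 and 0.86 on arrays 1 to 4, a mean of 0.61 ± 0.22 (SD, n = 4; adjusted p = 0.00972). All 4 arrays were above the fold change threshold. The call was lost without array 2 (0.57, adjusted p = 0.0504), after normexp and loess (0.21), without the filter on dim probes, with the plain one-sample test and with no replicate block. The NRF1 call was kept without lowess (0.44, adjusted p = 0.0102). PRKAA2, a catalytic subunit of the energy sensor AMPK, was called lower, with -0.43, -0.15, -0.49 and -0.99, a mean of -0.52 ± 0.35 (adjusted p = 0.0405). PRKAA2 was well above background on 4 arrays in the control channel and on 3 in the GO channel. It thus passed the filter through the channel where it is high, and no conclusion is drawn from its call. Without array 1, 2, 3 or 4 it was -0.54, -0.64, -0.52 or -0.36, each without a call, and normexp with loess (-0.24), the plain one-sample test, the test with no replicate block and testing all probes gave no call either. Without lowess PRKAA2 was called lower (-0.61, adjusted p = 0.0328). PPARGC1A, the coactivator known as PGC-1 alpha, was too dim to be tested.

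Markers of differentiating muscle cells were present, and not alone. In control cells 7 of 8 fibroblast and 3 of 3 smooth muscle markers were also well above background on all 4 arrays. Of 15 listed myogenic markers 11 were on the array. All 11 stood clearly over background in control cells on each of the 4 arrays, and MYH3, embryonic myosin, had the brightest probe. With GO 6 of the 11 fell by limma, which is 54.5% against 5.38% of all genes, and the other 5 were below 0. The plain one-sample test called 1 of them lower and the test of the channels as separate samples called 3. Without lowess 3 were called lower, beside 681 of the 9500 genes. Over the 11 genes the median was -0.40, and all 11 were below 0 in all 3 scalings. Their summed signal was at -0.39, -0.70, -0.78 and -0.72 on arrays 1 to 4, a mean of -0.65 ± 0.17 (SD, n = 4). The largest falls were those of MYH8 (-1.08), MYF5 (-0.93), MYH3 (-0.83) and ACTA1 (-0.64), of which MYH3 and ACTA1 were not called without lowess. The part of the markers in any result above was not tested, and in bulk RNA fewer cells of a type and less RNA per cell cannot be told apart.

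Of 8 fibroblast markers on the array 7 were tested, with a median of 0.08 that was 0.26 after normexp and loess and 0.70 without lowess, with 1 and 4 of the 7 called higher, beside 123 and 366 of the 9500 genes. The receptor PDGFRA rose, with 0.48, 0.90, 0.58 and 1.54, a mean of 0.87 ± 0.48 (SD, n = 4; adjusted p = 0.0199), 1 call of 7 against 3.31% of all genes. The call was lost without array 2 (0.87, adjusted p = 0.0741), after normexp and loess (0.37), without the filter on dim probes, with the plain one-sample test and with no replicate block. The PDGFRA call was kept without lowess (0.75, adjusted p = 0.0137). These counts are for the brightest probe of each gene. Of the 9 COL1A2 probes, which ran down to -0.42, 2 were called lower, and 1 of the 2 DCN probes was called higher (0.42). The COL3A1 probes ran from -0.18 to 0.37 without a call. The summed signal of the fibroblast markers, of which COL1A2 has the brightest probe, was at -0.07, -0.01, -0.14 and 0.05. All 5 adipocyte and all 5 endothelial markers on the array were too dim to be tested. Of the leukocyte markers 3 of 6 were tested and of the smooth muscle markers 3 of 3. By limma 0 of either list passed both thresholds, as with the other tests, against 8.68% of all genes. An unadjusted p under 0.05 was reached by 2 leukocyte markers, 1 higher and 1 lower, and by 0 smooth muscle markers, against 34.7% of all genes.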

How the data were processed

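Each of 4 two-color 60-mer horse arrays compared GO-treated cells (Cy5) with control cells (Cy3). The authors processed the scans with Feature Extraction (10.10.1.1 per the file headers, genome build EquCab1). The deposited ratios are log10 of GO over control after background subtraction and linear and lowess dye normalization, and were converted to log2. The deposited signals are intensity values per channel. Of 43803 noncontrol spots, 63.5 to 68.9% in the control channel and 57.4 to 67.0% in the GO channel were well above background, and 0 were saturated.

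Of 43603 probes, the 26832 that were well above background on all 4 arrays in at least 1 channel were tested with limma 3.58.1 in R 4.3.3: an intercept model with empirical Bayes moderation, two-sided, with Benjamini-Hochberg adjustment over all tested probes. Thresholds were 0.05 for the adjusted p and 1.3 for the fold change, and intervals are 95% intervals of the moderated t. The fit was tested on simulated data. Other tools were the R package data.table (version 1.17.8), Python 3.11.15, pandas 2.3.3, numpy 2.4.6 and matplotlib 3.10.9. Each gene is represented by its brightest probe.

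Alternatives were normexp background correction (offset 50) with loess, median centring without lowess, median centring of the deposited ratios, no filter on dim probes, a filter on both channels, a plain one-sample test, the channels tested as separate samples without the array (no replicate block), leaving out each replicate, the median over the probes of a gene, NDUFA4L2 placed with complex I, and all matches placed by name. Adding genes named by RefSeq or the descriptions, and using the brightest probe RefSeq gives ATP5E and NDUFB2, were chosen after seeing the data.

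Genes were named by rule: in each complex the brightest subunit, the highest and lowest ratio and subunits past both thresholds, isoform pairs, the SDH genes, assembly factors and up to 4 genes per direction past both thresholds in each other list, and GAPDH and ACTB. The other lists were core subunits of complex I, mitochondrially encoded subunits, assembly factors, cytochrome c and coenzyme Q synthesis, regulators of mitochondrial biogenesis, and markers of myogenic cells, fibroblasts, adipocytes, endothelium, leukocytes and smooth muscle. The members and lists were chosen with earlier results of these data known. Named after their values were seen: NDUFA10, NDUFS1, NDUFS3, NDUFAF1, NDUFAF2, NDUFAF6, NDUFAF7, SDHAF2, UQCRC2, COX5A, COX7A2L, COX7B2, ATP5C1, ATP5H, ATP5J, ATP5L, COX6C, ATP5S, ATP5SL, LRPPRC, COX3, ATP6, ND1, ND4, CYTB, PPARGC1A and COL1A2.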

Additional observations from a re-analysis of the deposited data

Results flagged for a closer look

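Among 39 sets of 4 array values compared, 1 passed a criterion for an array apart from the other 3. The log2 ratio of the actin gene ACTB was 0.19 on array 1 and -0.11, -0.15 and -0.13 on arrays 2 to 4. The gap between array 1 and its nearest neighbour, divided by the range of the 4 values, was above Dixon's 95% critical value. Chance singles out about 1 in 20 such sets. ACTB is a control gene here, and its mean of -0.05 becomes 0.32 after normexp and loess and 0.84 without lowess.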

How the results depend on the processing

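Over the whole array 2399 probes passed both thresholds by limma; the count was 3306 without lowess, 1297 after normexp and loess, 908 without the filter on dim probes, 147 with the plain one-sample test, 919 with no replicate block, and 1566 to 2430 when 1 replicate was left out. The cause was not tested. Among the members the count of 0 became 5 without lowess and 1 with the genes named by RefSeq or the descriptions. The median of the members, -0.03, was 0.12 without lowess, -0.070 with those genes, and -0.052 to -0.032 when 1 replicate was left out. The complex I median, -0.03, was -0.059 after normexp and loess, 0.12 without lowess, -0.0088 with the median over the probes of a gene, -0.0079 with all matches placed by name, and -0.048 to -0.025 when 1 replicate was left out. That of complex II, -0.22, was -0.14 with all matches placed by name and -0.28 to -0.16 when 1 replicate was left out. The complex IV value of 0.34, which is NDUFA4L2 alone, was 0.19 after normexp and loess and -0.21 with the added genes; placing NDUFA4L2 with complex I by name leaves complex IV without a value. The complex V median, -0.18, was -0.012 after normexp and loess, 0.23 without lowess, -0.12 with all matches placed by name, -0.15 with the added genes, and -0.16 to -0.093 when 1 replicate was left out. With the added genes the medians of complexes III and IV, -0.20 and -0.21, were -0.13 and -0.037 after normexp and loess and 0.16 and 0.078 without lowess. For none of these medians was the cause tested. Of the genes named by rule, 5 changed sign after normexp and loess: ACTB (0.32), ATP5A1 (0.13), ATP5G2 (0.17), COX4I1 (0.14) and GAPDH (0.34). Without lowess 15 of them did: ACTB (0.84), ATP5A1 (0.59), ATP5B (0.43), ATP5G1 (0.13), ATP5G2 (0.59), COX2 (0.33), COX4I1 (0.56), COX6A1 (0.40), COX6B1 (0.36), COX7A2 (0.051), GAPDH (0.86), NDUFAB1 (0.12), NDUFS5 (0.31), UQCR10 (0.18) and UQCRH (0.25); the cause was not tested. Leaving out 1 replicate took ATP5D from -0.016 (without replicate 1) to 0.23, and ATP5G3 from -0.0046 (without replicate 2) to 0.045. Direction and side of the threshold were unchanged for 33 of the genes named by rule when the deposited ratios were median centred, 32 with the filter on both channels, 32 with the median over the probes of a gene, 28 without the filter on dim probes, 28 with no replicate block and 24 with the plain one-sample test. COX8B was past both thresholds in every one of these settings except the plain one-sample test (adjusted p 0.0519; 0.000967 to 0.0271 in the others). The median signal over local background was 3.66 to 4.22 in the control channel and 2.85 to 4.37 in the GO channel; what this limits was not tested.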

Other observations

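The SDHC value of array 4 is shared by all 4 probes of the gene, between -1.39 and -1.34, while the SDHC probes lay between -0.32 and 0.07 on arrays 1 to 3. The ratios of COX4I2, which was too dim to be tested, were -0.04 and 0.07 on arrays 1 and 2 and 0.60 and 0.92 on arrays 3 and 4.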
